A study of Ovis aries with 60 samples.

Results

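Outside the CG context, sheep sperm DNA carried almost no methylation, yet a small set of CHH and CHG cytosines was methylated in every sire. In CHH and CHG, H stands for A, C or T, so that the cytosine is not followed by a guanine in the reference sequence. The base that the animals themselves carried there was not tested. Members were the CHH and CHG cytosines of chromosomes 1 to 26 with a methylation level, the share of covering reads in which the cytosine is methylated, of at least 50% in all 10 F0 rams. There were 1106 of them among 10835185 listed CHH and CHG cytosines. CHH cytosines made up 859 of the members, out of 8676521 listed (0.0099%), and CHG cytosines 247, out of 2158664 listed (0.0114%). In the CG context the same rule took 195964 of 300610 listed cytosines (65.2%), here called the CG set. The members were chosen by the F0 levels, which are therefore given without a test.

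Sperm DNA was sequenced after bisulfite treatment, which converts unmethylated cytosines and spares methylated ones. The 10 Polypay F0 rams comprised 5 rams of the treatment group, fed encapsulated methionine from weaning to puberty, and 5 of the control group. Treated and control rams were twins, as the methods of the study state without naming the pairs. The F1 generation comprised 5 pools of progeny of treated sires and 5 of control sires, 1 pool for each F0 sire, and the F2 generation 20 rams, 2 for each F0 sire, 10 in each group. F1 and F2 animals received no supplement, and no knockout, transgene or other agent was involved. An F1 pool averages several animals whereas an F2 library is 1 ram, so that a low level in a single animal is diluted in F1. The diet groups descend from different sires, and diet cannot be told apart from differences between these families. In addition, p-values of the permutation tests and of limma measure only the spread between these samples, those of the test on summed reads not even that, and F2 rams of the same family are not independent. Here F1 pools and F2 rams are named by the F0 sire at the head of their family, which is the grandsire of an F2 ram.

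In mammals, CG methylation is kept through cell division by DNMT1, which copies the mark onto the new strand because the CG pair reads the same on both strands. A CHH cytosine has no such partner, and its methylation has to be placed anew by the de novo enzymes DNMT3A and DNMT3B. CHH and CHG methylation is widespread in plants, and in mammals it is known mainly from oocytes, embryonic stem cells and neurons, where it is broad and partial rather than full at single positions.

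Cytosines are listed only where each sample of the generation has 10 reads or more. In F0, the median coverage was 23 reads at CHH members and 24 at CHG members, against 24 and 23 over all listed cytosines of those contexts. Reads on listed CHH cytosines numbered 188929613 to 319973374 per F0 ram, 158474581 to 301412548 per F1 pool and 79193959 to 239651396 per F2 ram. In RNA libraries of the 20 F2 rams, used only to check the label, all 8 germ cell markers were detected in every ram. Among them were TNP1 and PRM1, the latter of which packages DNA in sperm. The 8 markers summed to 37.1 to 10249.2 CPM, with a median of 468.6. The 5 leukocyte markers, among them PTPRC, were also detected in every ram and summed to 43.6 to 4555.3, with a median of 327.6. None of them was at 0 in any ram. The 4 epithelial markers found of 5 summed to 6.15 to 76.6. These values come from RNA extracted after a somatic cell lysis step, which the methods of the study do not describe for the DNA. The part that other semen cells play in the DNA levels was not tested.

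The number of cytosines fell with the number of rams that reached 50%, apart from the members themselves and a small rise at 8 rams in CHG. A level of at least 50% in exactly 1 of the 10 rams was reached by 4348 CHH cytosines, in exactly 5 rams by 1231 and in exactly 9 rams by 601, and the 859 members exceeded the classes of 7, 8 and 9 rams. In the CHG context, 1032 cytosines reached 50% in exactly 1 ram, 332 in exactly 5, 158 in exactly 9, and 247 in all 10. Of the cytosines that reached 50% in at least 1 ram, members made up 5.38% of 15979 in CHH and 6.12% of 4037 in CHG, compared with 70% of 279882 in CG. Outside CG, a cytosine that was methylated in any ram was therefore usually not methylated in every ram.

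**Figure D1:**
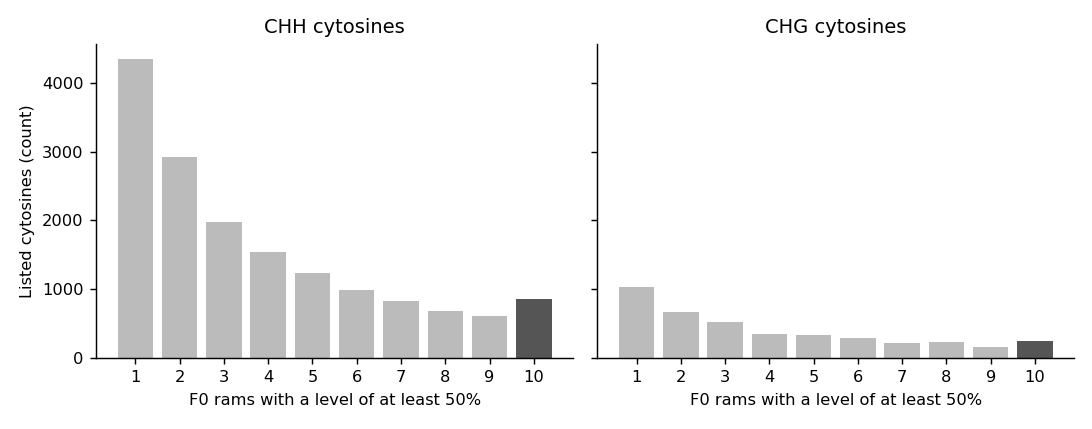
Number of listed CHH (left) and CHG (right) cytosines of chromosomes 1 to 26 by the number of F0 rams, of 10, in which the level was at least 50%; cytosines with 0 such rams are left out, and the dark bar marks the members. Counts fall from 4348 and 1032 cytosines in 1 ram to 601 and 158 in 9 rams, then rise to 859 and 247 in all 10.

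Levels at the members were close to full. The mean level over the 10 rams had a median of 92.2% over CHH members and 92.6% over CHG members, compared with 94% over the CG set. It was at least 90% at 537 CHH members (62.5%) and at 155 CHG members (62.8%). The lowest mean was 59.9% in CHH and 54.6% in CHG. Listed cytosines that were not members had a mean level of 0.377% in CHH and 0.392% in CHG. The spread over rams was wider than in the CG set, with a median SD of 6.89 points at CHH members and 6.67 at CHG members against 5.47 at CG cytosines. The lowest of the 10 rams was still at 80% or more at 397 CHH members (46.2%) and 115 CHG members (46.6%), and under 60% at 219 (25.5%) and 70 (28.3%). In the CG set these shares were 62.6% and 9.16%. Members lay on both strands alike, with 437 CHH members on the minus strand and 422 on the plus strand, and 121 and 126 CHG members.

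Near the threshold, the named cytosines had 1 or more rams at intermediate levels. Several members tied at a lowest ram of 50%, and the first by chromosome and position are named. The CHH member at chr1:51736322 on the minus strand (all positions are on Oar_rambouillet_v1.0) ranged from 50% to 98.2% over the 10 rams, and the one at chr1:40072103 on the plus strand from 50% to 100%. The CHG members at chr1:80432108, minus strand, and chr1:227650579, plus strand, likewise ran from 50% to 100%. Just outside, the CHH cytosine at chr1:3017694, plus strand, was at 49.8% in its lowest ram and at no more than 60.7% in any ram, with 170 to 519 reads, far above the usual coverage. The CHH cytosine at chr2:167686666, plus strand, was kept out by 1 ram at 49.1% and had its other rams at up to 94%. The CHG cytosines at chr5:62491040, plus strand, and chr7:20260767, minus strand, had lowest rams of 48.6% and 48.5% and highest rams of 100% and 96.9%. Apart from chr1:3017694, the cytosines just inside and just outside thus shared a spread of 40 points or more between rams.

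Diet groups hardly differed at the members in F0, where the rule itself limits the difference. The mean of the treatment group minus that of the control group had a median of -1.46 points over CHH members and -1.22 over CHG members, against -1.38 over the CG set. Its size had a median of 3.26 points in CHH and 3.11 in CHG. A difference of at least 20 points occurred at 0 CHH members, the largest being 19.3 points, and at 2 CHG members, the largest being 21.5.

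The members were single positions rather than methylated stretches. The median gap to the nearest other member was 804610 bp for CHH members and 2359801 bp for CHG members, and 571512 bp with both contexts together. Another member of their context lay within 100 bp of 10 CHH members (1.16%) and 0 CHG members. With both contexts together there were 8 such pairs (1.45% of members), 3 of them made of 1 CHH and 1 CHG cytosine, and no group was larger than a pair. Members made up 0.0099% of all listed CHH and 0.0114% of all listed CHG cytosines. The share of pairs that this rarity alone would give was not computed, and whether members lay closer together than that was not tested. In all 8 pairs both cytosines lay on the same strand, and with gaps of up to 1000 bp this held for 31 of 32 groups. The closest pair, at chr10:19721870 and chr10:19721894 on the plus strand, was 24 bp apart. The largest group within 1000 bp gaps held 3 CHH members, between chr1:247107661 and chr1:247108824. By chromosome, CHH members numbered from 7.62 per 100000 listed CHH cytosines on chromosome 4 to 16.2 on chromosome 11, where they were 12, and CHG members from 4.85 per 100000 listed on chromosome 17 (3 members) to 18.4 on chromosome 26 (6 members).

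Paired members were not always alike in level, as the first 2 CHH pairs by position show. At chr1:171975468, plus strand, the F0 means were 97.6% ± 2.52 (SD, n = 5) for treatment and 96.2% ± 2.49 (SD, n = 5) for control. Its partner at chr1:171975567, 99 bp away, was at 88% ± 2.04 and 92.8% ± 7.09. At chr2:182495812, minus strand, the F0 means were 65.4% ± 6.98 and 75.7% ± 7.32, whereas its partner at chr2:182495885, 73 bp away, was at 92.6% ± 3.87 and 93.4% ± 3.01. The difference within this second pair recurred in both later generations. In F1 the means in the treatment and control groups were 64.6% and 61.2% at the first position and 85% and 87.4% at the second. In F2 they were 67.2% and 68.2% at the first and 93.8% and 95.3% at the second.

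The other CHH and CHG cytosines around a member were unmethylated. Within 50 bp, the median level of listed CHH and CHG neighbours was 0.306% around CHH members and 0.293% around CHG members, compared with 0.302% and 0.299% around all listed cytosines of those contexts. Of 9385 such neighbours of CHH members, 13 (0.139%) had a level of 10% or more, and of 2686 neighbours of CHG members, 1 did (0.0372%). Around all listed CHH and CHG cytosines these shares were 0.191% and 0.201%.

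CG cytosines near the members were mostly methylated. A listed CG cytosine lay within 50 bp of 231 CHH members (26.9%) and 76 CHG members (30.8%), against 24.5% and 28.7% of all listed cytosines. Their level had a median of 92.1% near CHH members and 92.2% near CHG members, against 87.1% and 88% near all listed cytosines of the same contexts. Near CHH members, a level under 10% was also more frequent at these CG cytosines, at 13 of 231 (5.63%, against 1.82% near all listed), which was not tested. Near CHG members it occurred at 2 of 76 (2.63%, against 1.65%), too few to tell from the share near all listed. The median gap to the nearest listed CG cytosine was 137 bp for CHH members and 120 bp for CHG members, against 160 and 136 bp over all listed. Within 10 bp, a CG cytosine was listed for 72 CHH members (8.38%) and 28 CHG members (11.3%), and over all listed cytosines for 6.07% and 8.12%. The CG files list only covered cytosines, so a CG position that is not listed counts here as absent, for members and all listed cytosines alike.

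Beyond their level, the members stood out in what was listed at the next base. None of the 859 CHH members had a listed cytosine as the next base on the same strand, whereas 20.4% of all listed CHH cytosines did. A count of 0 allows a share of up to 0.349% (3 counts, counting error only). None of the 247 CHG members did either, where the share over all listed CHG cytosines was 1.81%, close to the 1.21% that 0 of 247 allows. The base before a member and the second base after it showed no such gap. A listed cytosine stood directly before 15.5% of CHH members and 16.8% of all listed CHH cytosines, and 2 bases after 17.7% and 17.2%. From 10 bases before to 10 bases after, no other offset differed by more than 3 points for CHH members. The second base after a CHG cytosine is a guanine by definition, which gives 0 for all. At 3 to 5 bases after, 16 to 21 of the 247 CHG members (6.48% to 8.5%) and 10.3% to 11.2% of all listed CHG cytosines had a listed cytosine. Other offsets went the other way, such as 6 bases after, with 15.8% of CHG members against 12.5%, and 6 bases before, with 16.2% against 13.4%. These differences were not tested.

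**Figure D2:**
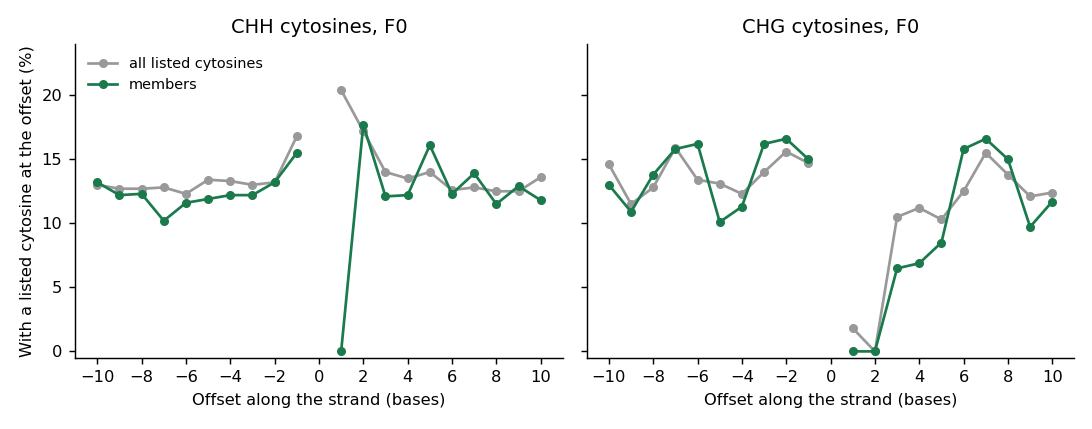
Share of CHH (left) and CHG (right) cytosines that have a listed cytosine of any context on the same strand at each offset from 10 bases before to 10 bases after, for members (green) and all listed cytosines (grey) in F0. At the next base the members are at 0% in both panels, where all listed cytosines are at 20.4% and 1.81%.

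This depletion at the next base was graded. A listed cytosine followed 20.4% of CHH cytosines that reached 50% in 0 rams, 2.51% of those that did so in exactly 1 ram, 1.26% in 2 rams and 0.354% in 3 rams. From 4 to 9 rams the share was at most 0.259%. In CHG the share was 1.81% for 0 rams, 0.775% for 1 ram and 0.452% for 2 rams, and from 3 rams on it was 0 except for 1 cytosine with 5 rams. In CHH, a count of 0 also held for cytosines that the F0 files do not list and that had no part in the rule. Of CHH cytosines at 50% or more in every F1 pool and not listed in F0, 0 of 195 had a listed cytosine as the next base, which allows up to 1.54%, and 31 (15.9%) had one as the base before. In F2 the corresponding counts were 0 of 84, which allows up to 3.57%, and 12 (14.3%). All listed CHH cytosines had 20.4% in F1 and 16.5% in F2. In CHG, 0 of 76 and 0 of 37 allow 3.95% and 8.11%, above the 1.82% and 0.914% of all listed, so that no depletion was detectable there. Context was assigned from the reference sequence, and whether the animals carried the reference base after each member was not tested. No genome of this build was used here, so the bases themselves are not printed, and genes or repeats at the members were not analysed.

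Most members that could be followed were methylated in every F1 pool. The F1 files listed 621 CHH members (72.3%) and 179 CHG members (72.5%), close to the 72.6% of the CG set. Of these, 510 CHH members (82.1%, exact Clopper-Pearson 95% interval 78.9% to 85.1%, covering counting error only) were at 50% or more in all 10 pools. In CHG, 144 members (80.4%, interval 73.9% to 86%) were. In the CG set 96.8% were. A pool under 10% occurred at 4 CHH members and 0 CHG members. In each pool, 94.8% to 98.7% of the CHH members and 94.4% to 98.9% of the CHG members were at 50% or more, against 99.1% to 99.8% of the CG set. The lowest of these CHH shares, 94.8%, was that of the control pool of sire 10.

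Fewer members were methylated in every F2 ram, of which there were 20, each sequenced singly. The F2 files listed 315 CHH members (36.7%) and 92 CHG members (37.2%), against 24.4% of the CG set. At 50% or more in all 20 rams were 116 CHH members (36.8%, interval 31.5% to 42.4%) and 35 CHG members (38%, interval 28.1% to 48.8%), compared with 88.1% of the CG set. With the reads of the 2 rams of each sire summed, which makes 10 samples, the shares were 67.6% in CHH and 62% in CHG. With at least 15 reads in every F2 ram, they were 28.9% of 83 CHH members and 25% of 24 CHG members. In a single ram, 84.8% to 94.6% of CHH members and 83.7% to 95.7% of CHG members were at 50% or more, against 95.5% to 99.5% of the CG set. Over all members listed in F2, the median CHH member reached 50% in 19 rams and the median CHG member in 18. Of the 199 CHH members that were under 50% in some ram, 61 were so in 1 ram alone, and of 57 CHG members 10. No member was under 50% in all F2 rams or in all F1 pools.

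**Figure D3:**
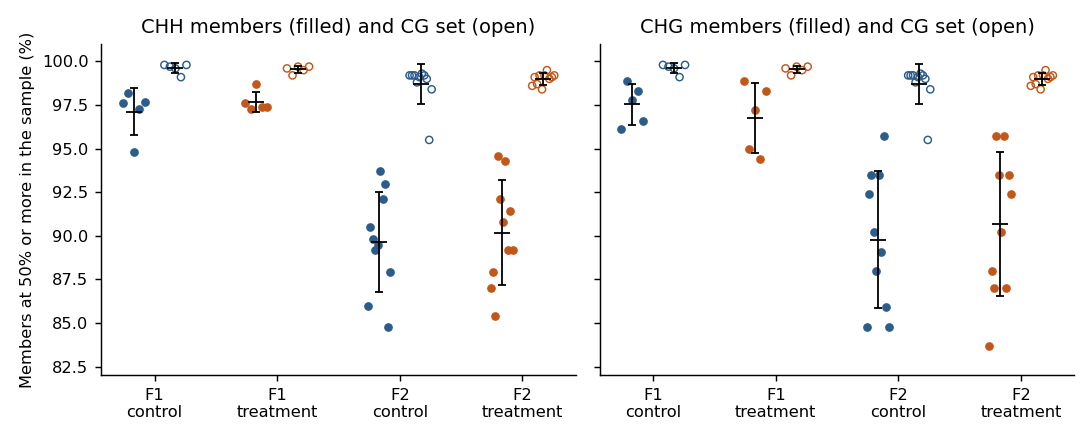
Share of CHH (left) and CHG (right) members at a level of at least 50% in each F1 pool and F2 ram (filled points) beside the CG set (open points), by diet group of the F0 sire; bars are the mean and SD, and the vertical axis starts at 82%. All F1 pools lie at 94.4% or more, F2 rams lie between 83.7% and 95.7%, and the 2 diet groups overlap in each generation.

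Diet groups overlapped in these shares. In F1 the share of CHH members at 50% or more was 97.7% ± 0.587 (SD, n = 5) for treatment and 97.1% ± 1.32 (SD, n = 5) for control. In F2 it was 90.2% ± 3.02 (SD, n = 10) and 89.7% ± 2.87 (SD, n = 10). For CHG members the shares were 96.8% ± 1.99 and 97.5% ± 1.16 in F1, and 90.7% ± 4.11 and 89.8% ± 3.91 in F2. The mean level of the CHH members was 84.8% ± 1.25 and 86% ± 0.505 in F1, and 84.8% ± 4.39 and 84.4% ± 3.95 in F2.

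Among F2 rams, 5 had the lowest mean levels of both CHH and CHG members. Both rams of sire 24 were among them, at 76.9% and 78.5% over CHH members, with a ram of sire 3 at 77.8%, a ram of sire 5 at 78.4% and a ram of sire 11 at 81.1%. The other 15 rams were at 82.3% to 90.2%. The same 5 rams were also the lowest in the CG set, at 84.6% to 89.3% where the other 15 were at 91.5% to 94.7%. They came from both diet groups. The lowest of them also had the shallowest library, with a median of 13 reads at CHH members, whereas the other 4 had 21 to 32 reads. The part of depth in these means was not tested.

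Levels under the threshold in F2 were mostly intermediate rather than near 0. In F0 every value was at 50% or more by the rule, and 66.3% of CHH values were at 90% or more. In F1 the share of CHH values at 90% or more was 51%, and in F2 63.2%. Levels from 30% to under 70% made up 14.8% of CHH values in F1 and 15.7% in F2, levels from 10% to under 30% made up 0.225% and 1.59%, and levels under 10% made up 0.0805% and 1.37%. In CHG, 15.4% of F1 values and 16.2% of F2 values were from 30% to under 70%, and 0 and 0.978% were under 10%. In the CG set the F2 shares were 5.45% and 0.0861%. Over the members listed in each generation, the single F2 rams thus had more CHH values at 90% or more than the pools and also more under 10%. These are not the same cytosines, as 621 CHH members were listed in F1, 315 in F2 and 276 in all 3 generations.

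**Figure D4:**
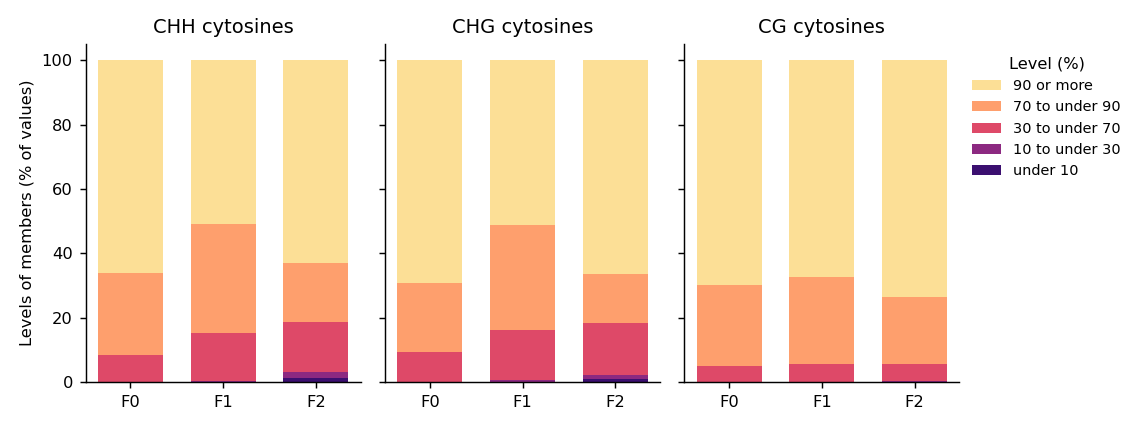
Levels of CHH members, CHG members and the CG set in F0, F1 and F2, as the percentage of all values (cytosines by samples) in 5 classes of level. Values from 30% to under 70% make up 8.52%, 14.8% and 15.7% of CHH values in F0, F1 and F2, against 5.05%, 5.44% and 5.45% in the CG set.

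In CHH, constancy rose with the level of the lowest F0 ram. In CHG it was also lowest at the low end, and the F2 classes were too small to tell whether it rose steadily. Among CHH members whose lowest F0 ram was from 50% to under 60%, 97 of 167 (58.1%) were at 50% or more in every F1 pool and 10 of 80 (12.5%) in every F2 ram. Among those whose lowest F0 ram was at 90% or more, 93 of 94 (98.9%) and 28 of 52 (53.8%) were. In CHG the corresponding counts were 21 of 49 (42.9%) and 3 of 23 (13%) at the low end, and 29 of 30 (96.7%) and 8 of 19 (42.1%) at the high end. In the classes between, the F1 shares were 80%, 100% and 98.1%, and the F2 counts 1 of 7 (14.3%), 7 of 10 (70%) and 16 of 33 (48.5%). The exact intervals of the upper F2 classes overlapped, at 34.8% to 93.3% for 7 of 10, 30.8% to 66.5% for 16 of 33 and 20.3% to 66.5% for 8 of 19. An F2 ram under 10% occurred at 7 of 23 CHG members (30.4%) of the lowest class and at 4 of 19 (21.1%) of the highest. In CHH it occurred at 40% of the lowest class, 5.88% of the class from 80% to under 90% and 9.62% of the highest. In the CG set the F2 share was 47.9% at the low end and 96.8% at the high end. For cytosines with all F0 rams at 90% or more, the exact interval of the F2 share was 39.5% to 67.8% in CHH and 96.5% to 97.1% in CG. These intervals cover counting error over cytosines of the same 20 rams, not the spread between rams, and the difference was not tested.

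Some F2 rams showed next to no methylation at a member. At least 1 ram was under 10% at 55 CHH members (17.5%) and 14 CHG members (15.2%), compared with 1.16% of the CG set. At 35 of the 55 CHH members and 12 of the 14 CHG members this was 1 ram alone. The 55 CHH members had a lowest F0 ram of 57.7% in the median, against 81.4% at the 260 without such a ram, and their F1 mean was 77.6% in the median against 90.1%.

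At least 1 F2 ram was at 0% at 48 CHH and 14 CHG members, and the examples below are the first of them by chromosome and position. At the CHH member chr1:121093183, minus strand, F0 levels lay between 89.8% and 100% and F1 levels between 72.7% and 100%. In F2 the rams of the treatment group ran from 0% over a median of 70.6% to 100%, and those of the control group from 46.2% over 93.4% to 100%. The ram at 0%, of sire 11, had 23 reads there, while the other F2 ram of that sire was at 50%. No read of this ram was methylated at a cytosine where the F0 sire of its family was at 100% with 28 reads.

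At the CHH member chr1:27572521, plus strand, 9 of the 10 F0 rams were at 92.9% or more and the control ram 10 was at 52.1% with 48 reads. The F1 pool of sire 10 was the lowest of the 10, at 25% with 44 reads, and its 2 F2 rams were at 59.5% and 54.5%. The pool of sire 12 was at 55.3%, and the 2 F2 rams of sire 12 were at 0% and 44.4%, although sire 12 itself was at 93%. The other 8 pools were at 80.6% or more.

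At the CHG member chr1:228554140, minus strand, every F0 ram was at 93.1% or more, whereas the F1 pools ran from 65.5% to 100% and the F2 rams from 0% to 100%. The ram at 0% there belonged to sire 10, with 34 reads, and the other F2 ram of sire 10 was at 60%. At the CHG member chr1:161951136, plus strand, 1 ram of sire 6 was at 0% with 46 reads, the other was at 100%, and 14 of the 20 rams were above 90%. At the CHG member chr2:139326568, plus strand, F0 rams were at 76.7% to 93.3%, and the F2 rams were spread from 0% to 97.5% with medians of 58.6% for treatment and 58.9% for control. The CHH member chr1:123459185, plus strand, was not listed in F1 and ran from 0% to 100% in F2 after 70% to 100% in F0.

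In F1, the lowest levels were at CHH members that had weak F0 rams. At chr5:31563590, plus strand, F0 levels ran from 50% to 100% and F1 levels from 0% to 94.4%. At chr13:7151536, plus strand, the F0 rams ran from 54.5% to 100%, and the F1 control pools from 0% over a median of 100% to 100%. At chr14:28418230, minus strand, F0 levels were 53.8% to 100% and F1 levels 6.45% to 81.8%. The lowest CHG members in F1 were chr6:60618091, minus strand, with pools from 10.5% to 100%, chr1:261171216, plus strand, with 15.8% to 89.5%, and chr9:96984840, plus strand, with 18.2% to 100%. None of these 6 members was listed in F2.

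At the other end, a core of members was methylated throughout. Of 276 CHH members listed in all 3 generations, 103 (37.3%, interval 31.6% to 43.3%) were at 50% or more in all 40 samples, and of 75 CHG members 27 (36%, interval 25.2% to 47.9%) were. The most constant CHH member was chr1:273084652, minus strand. Its lowest level in any of the 40 samples was 92.5%, in an F2 ram of the control group, and its group means were between 96.4% and 99% in all 3 generations. At chr4:10986737, plus strand, the lowest level was 90%, and at chr2:216513676, minus strand, it was 89.5% with up to 83 reads in a sample. Among CHG members, chr19:32324984, plus strand, had a lowest level of 88.9%, chr13:27819818, plus strand, of 86.1%, and chr1:203638823, minus strand, of 85.7%. At these 6 cytosines all samples of both diet groups were thus at levels typical of the CG set.

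Sires and their descendants resembled each other in their levels at the members by small margins in points. The own F0 sire was the nearest more often for F1 pools than for F2 rams. Averaged over CHH members, the level in an F1 pool differed from that in its own F0 sire by 9.4 points and from that in the other sires by 10.9 points, and for all 10 pools the own sire was the nearest. For CHG members the differences were 9.96 and 11.2 points, and the own sire was the nearest for 7 of 10 pools. An F2 ram differed from its own grandsire by 13.4 points and from the others by 14 points at CHH members, the own grandsire being nearer than the mean of the others for 16 of 20 rams and the nearest for 4. At CHG members these differences were 12.5 and 13.1 points, and the counts 18 and 4 of 20. Any of the 10 F0 sires could be the nearest by chance, and whether 4 of 20 exceeds that was not tested. The other sires include the twin of the own sire. The 2 F2 rams of a sire differed from each other by 15.1 points and from other rams by 17.1 points at CHH members. They were closer than the mean over rams of different families for 8 of 10 families, and closer than every such pair of rams for 0 of 10. At CHG members these counts were 7 and 1 of 10.

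Cytosines that were constant in a later generation and listed in F0 were mostly members. Of all listed CHH cytosines, 1048 (0.0129%) were at 50% or more in every F1 pool, and of the 853 of these that F0 listed, 510 (59.8%) were members and 170 had reached 50% in 9 rams. In F2, 219 CHH cytosines (0.00381%) were at 50% or more in every ram, and 116 (85.9%) of the 135 that F0 listed were members. In CHG, 307 cytosines (0.0152%) were constant in F1 and 76 (0.00564%) in F2, of which 144 of 231 (62.3%) and 35 of 39 (89.7%) with an F0 listing were members. F0 did not list 195 and 84 of these CHH cytosines and 76 and 37 of these CHG cytosines.

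Whether the diet of the F0 sire was reflected at the members was asked in F1 and F2, which had no part in choosing them. The listed cytosines of the diet tests included those outside chromosomes 1 to 26. In F1 CHH they numbered 8310730, against 8137663 on chromosomes 1 to 26. A difference was called where the methylated shares of the summed reads differed by at least 20 points with a Benjamini-Hochberg adjusted p of at most 0.01 in a likelihood-ratio test over all listed cytosines of the context. In F1, 6 of 621 CHH members (0.966%) were called, 4 with the treatment group higher and 2 with it lower, beside 0.00535% of all listed CHH cytosines. Without the control pool of sire 10, only that at chr9:102008342 was called. In F2, 13 of 315 CHH members (4.13%) were called, 8 higher and 5 lower, beside 0.0266% of all listed, and 5 with a threshold of 25 points. In CHG, 2 of 179 members (1.12%) were called in F1, 1 in each direction (1 in all without the control pool of sire 24), beside 0.00605% of all listed, and 7 of 92 (7.61%) in F2, 4 higher and 3 lower, beside 0.0306%, and 0 with 25 points.

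Most listed CHH and CHG cytosines have levels near 0, at which a difference of 20 points is out of reach. Among listed cytosines with 50% or more of their summed reads methylated, 2.6% were called in F1 CHH, 14.7% in F2 CHH, 2.09% in F1 CHG and 15.6% in F2 CHG, all of them above the share among the members. The 2 sets are not like for like. Members had to be at 50% or more in every F0 ram of both diet groups, which itself limits differences between the families. The wider set was taken by the summed level in the tested generation and can include members. Over all members followed, the median difference, treatment minus control, was -1.18 points for CHH and -0.464 for CHG in F1, and 0.068 and -0.0912 in F2. The test on summed reads takes no account of the spread between samples. With limma on the level of each sample, 0 members passed in any context or generation. The smallest adjusted limma p was 0.834 for F1 CHH, 0.665 for F2 CHH, 0.815 for F1 CHG and 0.667 for F2 CHG. This adjustment runs over all listed cytosines and hardly tells single members apart. In F1 CHH, chr9:102008342 and chr2:161263429 had unadjusted limma p of 0.000684 and 0.326, and both had an adjusted p of 0.834. Differences of 20 points or more that had an unadjusted limma p under 0.05 numbered 7, 4, 3 and 1 among members. These counts are for F1 CHH, F2 CHH, F1 CHG and F2 CHG, beside 0.00597%, 0.0124%, 0.00735% and 0.0123% of all listed cytosines. With limma on the means of the 2 rams of each sire, the F2 counts among members were 3 in CHH and 0 in CHG.

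The members described next were selected on their difference in the generation of the call, so that their permutation p in that generation is not independent of the choice.

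A CHH member was called in both generations in the same direction, the only one of the 27 called members to be so. At chr5:84143613, plus strand, the F0 rams of the treatment group were at 100% except for ram 5 at 57.1%, and those of the control group at 100%, 50%, 60.9%, 100% and 50%. In F1, the pools of treated sires were at 100%, 100%, 77.3%, 100% and 81.2%, and those of control sires at 76.5%, 42.1%, 33.3%, 71.4% and 57.1%, with 11 to 28 reads. The groups did not overlap in F1. The means were 91.7% ± 11.4 (SD, n = 5) and 56.1% ± 18.5 (SD, n = 5), which differed by 35.6 points (two-sided exact permutation test, unadjusted p = 0.00794, the smallest this design allows). On summed reads the difference was 33.8 points, with an adjusted p of 0.00554 in the likelihood-ratio test. The F1 call was lost on leaving out any 1 of 6 pools, those of the treated sires 3, 5 and 11 and of the control sires 6, 10 and 24, with differences of 29.5 to 34.4 points and adjusted p of 0.0159 to 0.121. The limma adjusted p was 0.834 in F1 and 0.665 in F2.

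In F2 the 10 rams of the treatment group were at 93.3% to 100% at this cytosine, with a median of 100%. The control group ran from 2.86% over a median of 84% to 100%, so that the groups overlapped. The means were 98.5% ± 2.51 (SD, n = 10) and 71.1% ± 34.3 (SD, n = 10), and the difference of 27.4 points had an unadjusted p of 0.0236 in a two-sided permutation test with 100000 resamples. The 4 F2 rams under 60% came from 3 control sires. Both rams of sire 10 were at 44% and 2.86%, 1 ram of sire 6 at 37.9% and 1 ram of sire 24 at 58.3%. These are the 3 control sires that were themselves at 50% to 60.9%, and the other F2 rams of sires 6 and 24 were at 95.2% and 100%. In F0, which chose the member, the group means were 91.4% and 72.2%, in the same direction.

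**Figure D5:**
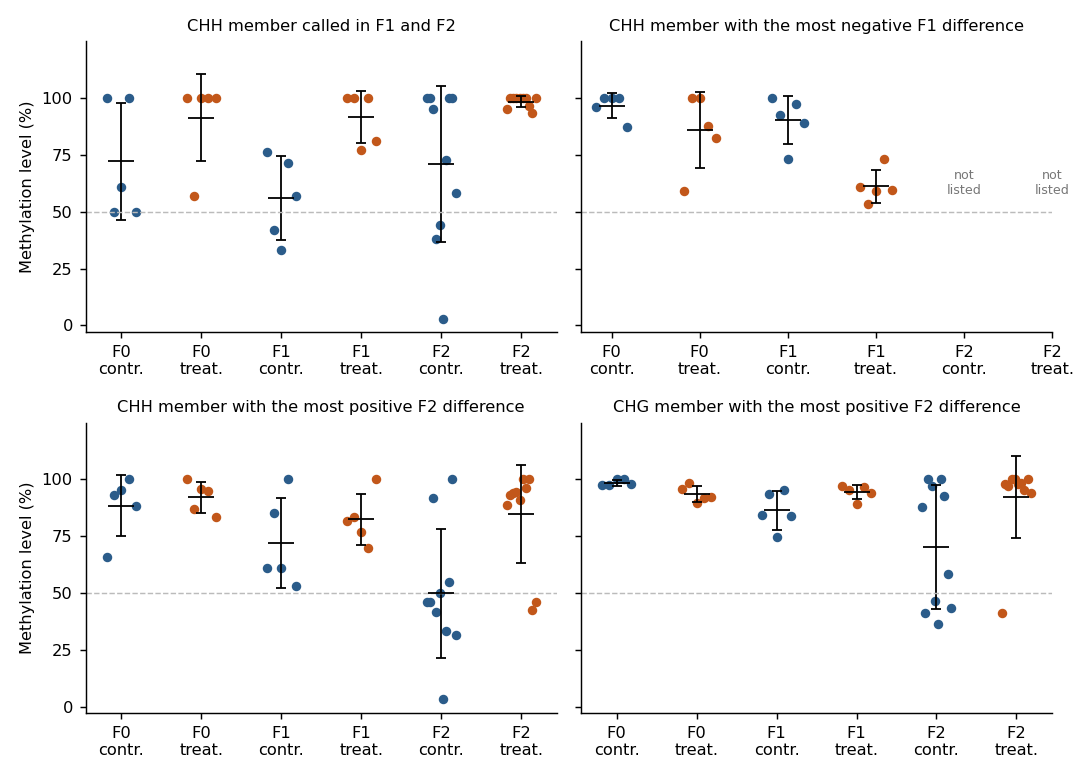
Methylation level in every sample at 4 called members, by generation and diet group of the F0 sire, with the mean and SD as black bars and a dashed line at the 50% that chose the members in F0. The groups do not overlap in F1 at the CHH members of the upper panels, chr5 (left) and chr9 (right, not listed in F2), and they overlap in F2 at all members shown.

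The other members with the largest F1 differences were not listed in F2 or were not called there. At the CHH member chr9:102008342, plus strand, the pools of treated sires were at 60.9%, 53.3%, 59.3%, 73.1% and 59.4%, and those of control sires at 100%, 92.5%, 73.3%, 97.2% and 89.3%. The groups did not overlap, and the means of 61.2% ± 7.25 (SD, n = 5) and 90.5% ± 10.4 (SD, n = 5) differed by -29.3 points (exact permutation test, unadjusted p = 0.00794). At the CHH member chr20:22702304, plus strand, the means were 77.4% ± 11.8 (SD, n = 5) and 47.8% ± 10.8 (SD, n = 5), 29.7 points apart (exact permutation test, unadjusted p = 0.0159), and 4 of the 5 pools of treated sires were above all control pools. Neither was listed in F2. The call at chr9:102008342 held without any 1 of the 10 pools, whereas that at chr20:22702304 was lost without any 1 of 6, those of the treated sires 3, 9 and 23 and of the control sires 4, 10 and 24. Their limma adjusted p was 0.834.

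In CHG, the member chr10:29619085, plus strand, was at 93.1% ± 8.85 (SD, n = 5) in F1 pools of treated sires and at 66.4% ± 19.8 (SD, n = 5) in those of control sires (exact permutation test, unadjusted p = 0.0238). The F1 call at this member was lost without the control pool of sire 24, at 20.5 points with a likelihood-ratio adjusted p of 0.0164. In F2 the means were 85% and 78.5% (permutation test, unadjusted p = 0.497). At the CHG member chr1:213440441, minus strand, the F1 means were 65.3% ± 15.1 (SD, n = 5) and 92% ± 9.05 (SD, n = 5), with the treatment group lower (exact permutation test, unadjusted p = 0.0159). In F2 the difference was 9.82 points in the opposite direction (permutation test, unadjusted p = 0.533). A CHH member 57 bp from it on the same strand, chr1:213440384, was chosen here after its values were seen. It was also called in F1 with the treatment group lower, by -21.2 points on summed reads against -25.1 at the CHG member. The call at this CHH member was lost without the pool of treated sire 9, 11 or 23 or of control sire 10 or 12. Without that of sire 9 the difference was -14.1 points, with an adjusted p of 0.945 in the likelihood-ratio test. The F1 call at the CHG member held without any 1 of the 10 pools.

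In F2, the other called members named here had overlapping groups. At the CHH member chr2:161263429, minus strand, 8 of the 10 rams of the treatment group were at 88.9% or more and the 2 rams of sire 23 at 42.6% and 45.8%. In the control group, 2 rams were at 91.7% and 100%, 7 at 31.4% to 54.8% and a ram of sire 10 at 3.12%. The means were 84.6% ± 21.6 (SD, n = 10) and 49.8% ± 28.2 (SD, n = 10), and the difference of 34.8 points had an unadjusted p of 0.0103 (permutation test, 100000 resamples). In F1 they were 82.4% and 72% (exact permutation test, unadjusted p = 0.341). At the CHH member chr2:144361706, plus strand, the F2 means were 92.1% ± 16.2 (SD, n = 10) and 69.6% ± 39.1 (SD, n = 10), a difference within the spread between rams (permutation test, unadjusted p = 0.121), because 4 control rams were at 0% to 42.3% and the other 6 at 92.3% or more.

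Among CHG members in F2, chr9:41409824, plus strand, had 9 of 10 rams of the treatment group at 93.9% or more and 1 at 41%, while 5 control rams were at 36.2% to 58.3% and 5 at 87.9% or more (means 92.2% and 70.4%, permutation test, unadjusted p = 0.0525). At chr26:42131709, minus strand, the means were 67.7% ± 34 (SD, n = 10) and 90.6% ± 15.3 (SD, n = 10), with the treatment group lower (permutation test, unadjusted p = 0.0719). At chr15:30832668, minus strand, they were 33% ± 28.4 (SD, n = 10) and 57.3% ± 29.5 (SD, n = 10) (permutation test, unadjusted p = 0.0774). None of these 3 permutation tests reached an unadjusted p of 0.05, whereas limma gave chr9:41409824 an unadjusted p of 0.0468 and an adjusted p of 0.667.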

How the data were processed

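Sperm methylation was analysed in 10 rams of F0, 10 pools of F1 and 20 rams of F2. The authors trimmed bisulfite reads with Trim Galore, aligned them to Oar_rambouillet_v1.0 with Bismark and Bowtie2, removed duplicates and deposited, per cytosine and sample, raw counts of covering and methylated reads, without normalization. The 120 columns of unmethylated reads were not used. RNA counts per gene, deposited by the authors after alignment with STAR, served only to check markers, as CPM.

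Levels are methylated over covering reads. Members and lists were chosen with earlier results of these data known. Likelihood-ratio tests on reads summed per group (SciPy 1.17.1) followed the study's thresholds and were tested on simulated data, with limma 3.58.1 on levels as alternative. Coverage of 10 reads moves a level in steps of 10 points, and positions with fewer reads in any sample of a generation are not listed there, a condition that 20 samples had to meet in F2 and 10 in F0 and F1.

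Named cytosines were, per context, the 3 members with the highest lowest level over all samples, the 3 with the lowest level in F1 and in F2, the 2 nearest the threshold inside and the 2 nearest outside with 9 rams at 50% or more, up to 3 called members per generation with the largest difference, and the members of the 2 longest chains within 100 bp, by number of members. Ties, which included all chains and the members at 0% in F2, were broken by chromosome and position. The part of the rule on genes could not be applied without an annotation of this build.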

Additional observations from a re-analysis of the deposited data

Results flagged for a closer look

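Of 42 groups of 4 to 10 samples examined for a sample far from the others, 5 had one, where chance gives about 1 in 20. The control pool of sire 10 had the lowest share of CHH members at 50% or more in F1, 94.8%, with the next pool of its group at 97.3%. The pool of the treated sire 9 had the highest, 98.7%, with the next at 97.6%. In F2, 1 ram of sire 3 was at 47.6% at the CHH member chr2:144361706, where the other rams of the treatment group were at 90.5% or more. The other ram of sire 3 was at 41% at the CHG member chr9:41409824, where the next was at 93.9%. A ram of sire 6 was at 50% at the CHG member chr26:42131709, where the next control ram was at 82.1%.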

How the results depend on the processing

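Of 106 values recomputed under alternatives, 71 stayed close to the reported value (a count or gap within 1.5 times, a share within its exact interval) and 35 moved. With a level of 40% in place of 50%, members numbered 1409 CHH and 395 CHG. Of the members of the 50% rule, 93.4% and 91.1% were at 40% or more in every F1 pool. In every F2 ram, 50.5% and 51.1% of them were. With 60% there were 640 and 177 members. Of the members of the 50% rule, 66% and 65.9% were at 60% or more in every F1 pool, and 30.5% of CHH members in every F2 ram. With 80% there were 397 and 115 members. With at least 15 reads in every F0 ram there were 368 CHH and 117 CHG members, and with 20 reads 203 and 60. With at least 15 reads in every F2 ram, the F2 shares were 28.9% and 25%, and with the 2 rams of a sire summed, 67.6% and 62%. With gaps of 50 bp, 2 CHH members were in chains, and with 1000 bp 37 CHH and 6 CHG members. Without 1 F0 ram in turn, members numbered 896 to 949 CHH and 258 to 271 CHG. Without 1 F1 pool in turn, the F1 shares were 82.8% to 85.2% and 80.4% to 84.4%, and called members 1 to 8 in CHH, the 1 being without the control pool of sire 10, and 1 to 2 in CHG, the 1 being without that of sire 24. With 25 points, 5 CHH and 0 CHG members were called in F2, and with 15 reads 2 of 83 and 2 of 24 members that remained. With limma on levels, and in F2 also on means per sire, 0 were. The cause was not tested. No paired analysis was possible because the treatment and control columns carry no shared number and the sources used here do not name the twin pairs. Coverage of 10 to 30 reads limits single levels, and members not listed in F1 or F2 could not be followed.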
